A study of Mus musculus with 30 samples.

Results

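The genes described here are 10 amino acid transporter genes of the blood-brain barrier (BBB), chosen by name from 21820 protein-coding genes of the annotation: Slc7a5, Slc3a2, Slc7a1, Slc38a2, Slc38a3, Slc38a5, Slc1a1, Slc1a4, Slc1a5 and Slc6a6. All 10 passed the filter on low counts in each comparison. RNA-seq libraries, 14 in all, give their transcript levels in cells of the mouse brain. Acutely isolated endothelial cells (ECs) were GFP-positive cells sorted from adult male Tie2-GFP mice, which express GFP under the Tie2 (Tek) promoter (n = 2), and the GFP-negative cells of the same brains were the parenchymal reference (n = 2). Libraries labelled WT culture (n = 6) came from puromycin-selected brain ECs grown for 8 days, of which replicates 1 and 2 were from C57BL/6J mice and replicates 3 to 6 from Ctnnb1flex3/+;Tie2-GFP mice without a Cre. Stabilized cultures (n = 4) came from Ctnnb1flex3/+;Pdgfb-CreER;Tie2-GFP mice, in which CreER under the EC gene Pdgfb removes exon 3 of 1 Ctnnb1 allele after 4-hydroxytamoxifen and leaves a beta-catenin that is not degraded. The Ctnnb1flex3/+ mice of both kinds had received 4-hydroxytamoxifen after birth. Culture replicates are wells, 2 from each experiment, and each experiment pooled the brains of several mice.

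Brain ECs form the BBB, so amino acids reach the brain through carriers of the EC membrane rather than between cells. Slc7a5 (LAT1) exchanges large neutral amino acids such as leucine and phenylalanine and works as a heterodimer with the glycoprotein Slc3a2 (4F2hc, CD98), and Slc7a1 (CAT1) carries arginine and lysine. Slc38a2 (SNAT2) takes up small neutral amino acids with sodium (system A), while Slc38a3 (SNAT3) and Slc38a5 (SNAT5) carry glutamine, histidine and asparagine (system N). Slc1a1 (EAAT3) takes up glutamate, aspartate and cysteine, Slc1a4 (ASCT1) and Slc1a5 (ASCT2) exchange alanine, serine, cysteine and, for Slc1a5, glutamine, and Slc6a6 (TauT) takes up taurine. In many cell types, lack of an amino acid raises translation of the transcription factor ATF4, and several of its known targets make or import amino acids.

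The RNA-seq libraries held 24284843 to 94686456 estimated counts. Summed TPM (transcript abundance per length, scaled to the same total in each library) of 10 EC markers was 3866 to 4345 in acutely isolated ECs, 103 to 115 in GFP-negative cells, 2077 to 4730 in WT cultures and 2272 to 6518 in stabilized cultures, so that each EC group held its defining markers. Summed erythrocyte markers were at 5448 to 41100 TPM in the acutely isolated ECs and at most 1.39 TPM in the cultures, and 5 pericyte markers at 248 to 358 against 4.09 to 19.2 TPM. WT culture replicates 3 and 4 stood apart: they were read at another facility for 150 cycles, while the other cultures were read for 36 cycles and the sorted cells for 75 cycles from 1 end. Wells of one experiment differed far less (mean chi-square per gene 7.48 to 28.9) than wells of different experiments (400 to 1002). The p-values below count each well as a sample, although wells are not separate animals or experiments. They therefore understate the spread between experiments and can be too small.

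In the acutely isolated ECs, the transporters fell into 4 steps of transcript level, compared per length as TPM of protein-coding transcripts of at least 1000 bases. On that scale, the highest mean levels were those of Slc3a2 (248 ± 69.1 TPM, SD, n = 2), Slc6a6 (243 ± 88.6), Slc38a3 (207 ± 48.0) and Slc7a5 (167 ± 15.2). Neighbours in this order overlapped, while Slc7a5 (156 and 178 TPM) lay below both Slc3a2 (199 and 297) and Slc6a6 (180 and 305). Each of the 4 lay at or above the 99.6th percentile of all protein-coding genes. Slc7a1 (94.9 ± 8.82 TPM) and Slc38a5 (80.7 ± 18.2) came next and overlapped each other, followed after a gap by Slc1a1 (12.9 ± 2.11) and Slc38a2 (9.61 ± 6.05). Slc1a5 (0.373 ± 0.045 TPM) and Slc1a4 (0.36 ± 0.108) were lowest. The heavy chain, its light chain Slc7a5, the taurine carrier and 1 system N carrier were among the most abundant EC transcripts, while both ASCT exchangers were below 1 TPM. These steps depend on the scale. In TPM over all transcripts, Slc1a1 (57.3 and 80.2) overlapped Slc38a5 (93.6 and 67.8). Slc3a2 (2228 and 1916) then lay above Slc6a6 (344 and 497) without overlap.

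**Figure D1:**
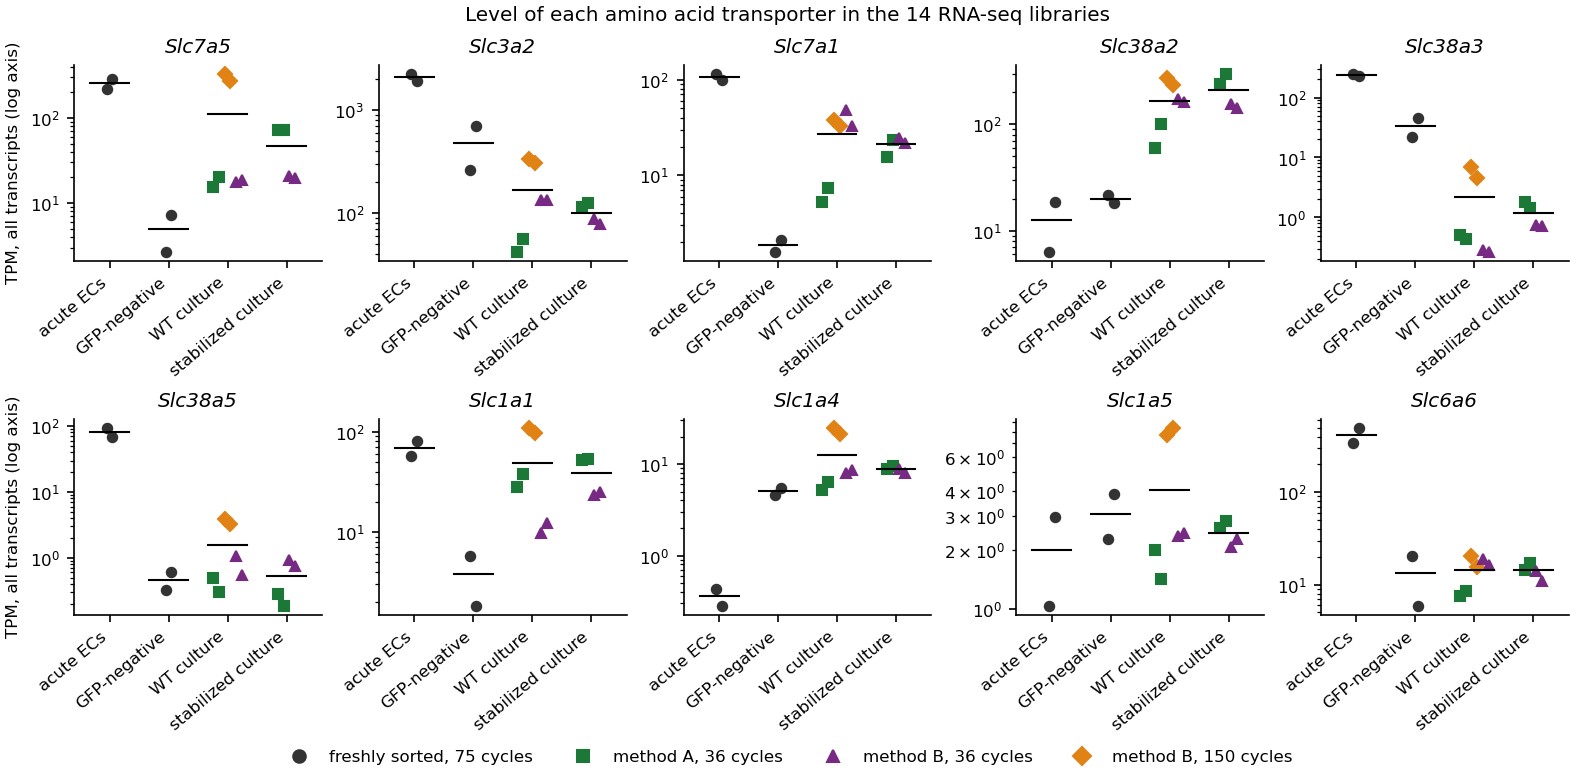
TPM over all annotated transcripts (log axis) of each of the 10 transporters in the 14 RNA-seq libraries, 1 point per library, with the group mean as a bar and the marker showing isolation method and read cycles. Slc38a3, Slc38a5 and Slc6a6 sat between 67.8 and 497 TPM in the 2 acutely isolated EC libraries. In every cultured library they were at 20.4 TPM or less. WT culture replicates 3 and 4 (diamonds) both lay above the other WT wells for 8 of 10 genes, all but Slc7a1 and Slc6a6. The share of all genes with this order was not counted. On TMM-scaled counts, replicates 3 and 4 lay below replicates 5 and 6 for Slc3a2 and Slc38a2. Their values were 292 and 284 against 341 and 327 CPM, and 694 and 616 against 928 and 852 CPM.

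GFP-positive and GFP-negative cells of the same brains were compared to ask which transporters belong to the ECs. With edgeR's quasi-likelihood test on counts, a gene was called at a Benjamini-Hochberg adjusted p under 0.05 over all genes, if its levels differed by more than 2-fold and no replicate of the group with the higher level lay below 5 TPM. Of the 10 transporters, 7 were called higher in GFP-positive cells and 0 lower, against 8.29% of 15102 tested genes higher and 7.56% lower. Over the 10 genes the log2 fold change had a median of 3.13, and over all genes tested of -0.06. In bulk libraries, fewer cells of a type and less RNA per cell cannot be told apart.

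Slc38a5 had the largest EC enrichment of the 10: it was at 93.6 and 67.8 TPM in the GFP-positive libraries and at 0.322 and 0.605 TPM in the GFP-negative ones, and the fitted difference was 183-fold (log2 fold change 7.51 ± 0.59, SE, adjusted p = 0.00173). Slc7a1 was at 114 and 99.9 against 1.59 and 2.12 TPM (61.7-fold, adjusted p = 0.00164). Slc6a6 was at 344 and 497 against 20.5 and 5.92 TPM (53.9-fold, adjusted p = 0.0018). The groups did not overlap for these 3 carriers of glutamine, cationic amino acids and taurine, nor for any other transporter called here. The share of all genes without overlap was not counted. Slc7a5 was at 221 and 289 against 2.67 and 7.19 TPM (51.2-fold, adjusted p = 0.00263), and its partner Slc3a2 at 2228 and 1916 against 261 and 702 TPM (5.03-fold, adjusted p = 0.013). The subunits of the LAT1 heterodimer therefore differed in how far their transcripts were restricted to ECs: the Slc3a2 to Slc7a5 ratio of long coding TPM was 1.12 and 1.90 in the GFP-positive libraries and 9.68 and 9.74 in the GFP-negative ones. Slc38a3, which astrocytes also express, was at 245 and 229 against 22 and 44.9 TPM (7.53-fold, adjusted p = 0.00827). Without acutely isolated replicate 1 the log2 fold change of Slc38a3 was 2.13 in place of 2.91 and that of Slc38a5 6.74, and without GFP-negative replicate 2 that of Slc7a5 was 6.41 in place of 5.68, all still called.

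Of the remaining 4 transporters, 1 was called. Slc1a1 was at 57.3 and 80.2 TPM in GFP-positive and 5.81 and 1.84 TPM in GFP-negative cells (10.2-fold, adjusted p = 0.0193), but with protein-coding transcripts alone its log2 fold change was 2.04 and the call was lost (adjusted p = 0.122). Its size also turned on single libraries, at 4.83 without GFP-negative replicate 1 and 2.64 without GFP-negative replicate 2, against 3.35 with both. With those of at least 1000 bases, the other 6 genes were called higher, against 5.74% of genes higher and 5.83% lower. Slc1a4 lay the other way, at 0.436 and 0.283 against 4.60 and 5.44 TPM (log2 fold change -3.36 ± 0.65, adjusted p = 0.0133), and missed the call only because 1 GFP-negative library, replicate 1, was below 5 TPM. Without that library it was called lower (-3.26, adjusted p = 0.0286). Slc38a2 (6.34 and 18.7 against 21.6 and 18.1 TPM, adjusted p = 0.5) and Slc1a5 (1.05 and 2.96 against 2.28 and 3.86 TPM, adjusted p = 0.172) did not pass the test. Summed markers of astrocytes were at 907 to 2141 TPM in the GFP-negative and 86.2 to 469 TPM in the GFP-positive libraries, and those of pericytes at 239 to 473 and 248 to 358 TPM, and their part in these differences was not tested.

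Cultured and acutely isolated ECs were compared to ask how the transporters behave after 8 days in vitro. In WT cultures, 2 of the 10 genes were called higher and 6 lower, against 13.5% of 13785 tested genes higher and 10.2% lower, and the log2 fold change had a median of -2.79 over the 10 and 0.10 over all genes. The lower genes were the LAT1 subunits, the cationic carrier, both system N carriers and the taurine carrier. The higher ones were the system A carrier Slc38a2 and the exchanger Slc1a4. This comparison shares its acutely isolated libraries with the one above.

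The system N and taurine carriers had the largest differences of the 10. Slc38a3 was at 245 and 229 TPM in acutely isolated ECs and at 0.268, 0.476 and 6.90 TPM (lowest, median and highest) in WT cultures, a 260-fold difference (log2 fold change -8.02 ± 0.95, adjusted p = 0.00039). Slc38a5 was at 93.6 and 67.8 against 0.301, 0.81 and 3.86 TPM (109-fold, -6.76 ± 0.67, adjusted p = 0.00018). Every cultured well was far below both acutely isolated libraries for these glutamine carriers, and the 2 highest wells for each were replicates 3 and 4. Slc6a6, the taurine carrier, was at 344 and 497 against 7.57, 16.0 and 20.4 TPM (65.9-fold, -6.04 ± 0.53, adjusted p = 0.00011). Without acutely isolated replicate 1 the log2 fold changes of Slc38a3 and Slc38a5 were -7.35 and -6.11, while that of Slc6a6 was -6.09.

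Slc7a1 was at 114 and 99.9 TPM in acutely isolated ECs and 5.29, 32.5 and 47.7 TPM in WT cultures (11.1-fold lower, log2 fold change -3.47 ± 0.91, adjusted p = 0.0134), without overlap. For Slc7a5 the groups overlapped on the TPM scale: the acutely isolated libraries were at 221 and 289, replicates 3 and 4 at 328 and 272, and the other 4 wells between 15.4 and 20.0 TPM. On TMM-scaled counts, which the test uses, they did not overlap (1502 and 2548 CPM against 76.5 to 583 CPM), and the gene was called 8.66-fold lower (-3.11 ± 0.85, adjusted p = 0.0162). Slc3a2 was at 2228 and 1916 against 42.3, 135 and 337 TPM (5.55-fold, -2.47 ± 0.48, adjusted p = 0.00338), but in TPM of long coding transcripts replicates 3 and 4 (333 and 302) were above both acutely isolated libraries (199 and 297). With those transcripts alone its log2 fold change was -1.66, and with an offset for transcript length -4.51, so the size of the Slc3a2 difference depends on how its transcripts are counted. Without acutely isolated replicate 1, Slc7a5 (adjusted p = 0.107), Slc7a1 (0.0703) and Slc38a2 (0.0767) were no longer called, which left 1 gene higher and 4 lower. Without WT culture replicate 5 the Slc7a1 difference was -4.13.

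Slc38a2, the system A carrier, was at 6.34 and 18.7 TPM in acutely isolated ECs and at 60.5, 168 and 273 TPM in WT cultures (4.1-fold higher, log2 fold change 2.03 ± 0.50, adjusted p = 0.00999). Slc1a4 was at 0.436 and 0.283 against 5.27, 8.26 and 24.8 TPM (10.1-fold higher, 3.33 ± 0.50, adjusted p = 0.00106). No culture overlapped an acutely isolated library for either gene, and without acutely isolated replicate 1 the Slc1a4 difference was 4.09. Slc1a5 was at 1.05 and 2.96 against 1.42, 2.41 and 8.39 TPM (1.48 ± 0.51, adjusted p = 0.0411) and missed the call because most wells were below 5 TPM. Its difference was 0.28 (adjusted p = 0.674) with the length offset. Slc1a1 was at 57.3 and 80.2 against 9.68, 33 and 109 TPM (-1.07 ± 0.58, adjusted p = 0.16) and was called lower when only the 36-cycle cultures entered (-1.64, adjusted p = 0.0302). With protein-coding transcripts alone its difference was -0.02 (adjusted p = 0.985), and in TPM of long coding transcripts it was at 12.9 ± 2.11 in acutely isolated ECs and 47.1 ± 43.7 in WT cultures. Of the 10 EC markers, 4 (Tek, Kdr, Flt1 and Cldn5) were called lower and 1 (Emcn) higher in this comparison. Summed astrocyte markers were at 86.2 to 469 TPM in acutely isolated ECs and 4.36 to 46.2 TPM in WT cultures, and oligodendrocyte markers at 29.6 to 34.1 and 0.2 to 1.27 TPM. These, erythrocyte and pericyte markers, smooth muscle markers (215 to 233 TPM in acutely isolated ECs and 501 to 3068 TPM in WT cultures) and the share of mitochondrial counts (10.6 to 11.2% against 0.667 to 1.58%) moved with the comparison, as did read length, and their part was not tested. With protein-coding transcripts of at least 1000 bases alone, the same 2 genes were higher and the same 6 lower, against 12.3% and 8.15% of genes.

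**Figure D2:**
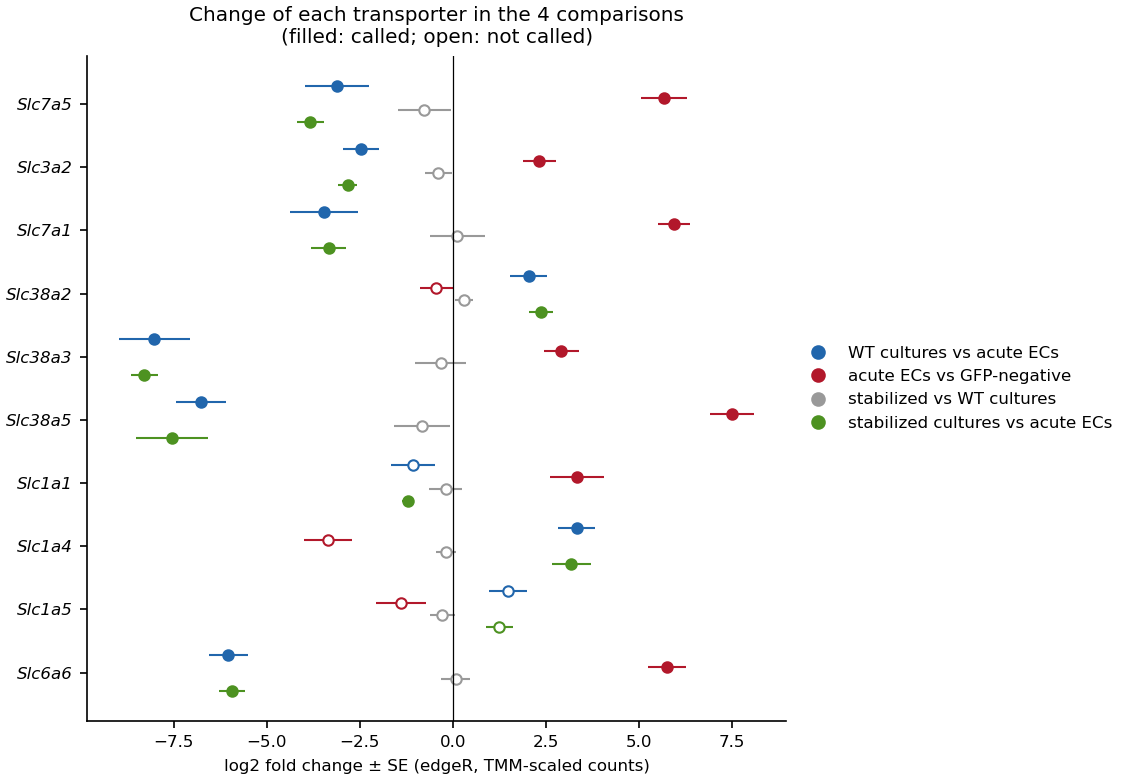
Log2 fold change (x axis, edgeR, error bars are SE) of the 10 transporters in the 4 comparisons, filled where the gene was called and open where it was not. Slc38a3 and Slc38a5 lie farthest to the left in the culture comparisons (-8.02 and -6.76 in WT cultures), Slc38a2 and Slc1a4 lie to the right, and the stabilized against WT values are all open and within 0.83 of 0.

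The order of the transporters by long coding TPM was also different in culture. In WT cultures, Slc3a2 (167 ± 123 TPM, SD, n = 6) and Slc38a2 (164 ± 80.7) headed the order, followed by Slc7a5 (112 ± 147), Slc1a1 (47.1 ± 43.7) and Slc7a1 (26.7 ± 17.4), while Slc38a3 (1.97 ± 2.53) and Slc38a5 (1.5 ± 1.59) came last. Each gene overlapped the next one in this order. In stabilized cultures Slc38a2 stood first at 202 ± 70.6 TPM (n = 4) and did not overlap Slc3a2 at 101 ± 22.2.

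Much of the spread among WT cultures lay between experiments. By the methods text of the study, replicates 1 and 2 were isolated by papain digestion (method A), and replicates 3 to 6 by Dounce homogenization and collagenase (method B). A figure legend of the study instead gives method A to all WT RNA-seq samples except those sequenced at another facility. The contrasts between methods and the strain of the WT wells given here follow the methods text. The mean Slc7a5 level was 17.7 TPM in the method A wells, 18.1 TPM in the method B wells read for 36 cycles and 300.3 TPM in the method B wells read for 150 cycles, a 16.9-fold range of experiment means. Slc38a3 ranged over 20.9-fold (0.275 to 5.74 TPM) and Slc1a1 over 9.32-fold (11.0 to 103 TPM), with the 150-cycle wells highest in both. On TMM-scaled counts these ranges were narrower. Slc7a5 was at 76.5 to 88.4 CPM in the 36-cycle wells and 583 and 515 CPM in the 150-cycle wells. Slc38a3 was at 1.06 to 1.92 against 9.38 and 7.67 CPM, and Slc1a1 at 49.7 to 148 against 260 and 241 CPM. Slc7a1 was highest in the 36-cycle method B wells (40.2 TPM) and lowest in the method A wells (6.35 TPM). Its range was wider, not narrower, on TMM-scaled counts. These were 375 and 272 CPM in the 36-cycle method B wells and 28.9 and 32.1 CPM in the method A wells. The 150-cycle wells were at 62.1 and 56.5 CPM, against a mean of 35.3 TPM. The 150-cycle wells are 1 experiment, so that culture, facility and read length cannot be told apart there. The study trimmed the reads of 1 of these samples to the shorter read formats and reported highly correlated gene expression. The part of read length in the levels of single transporters was not tested.

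Stabilized and WT cultures were compared to ask whether a stable beta-catenin alters the cultured cells. No transporter was called, and 0% of 12959 tested genes were called in either direction by edgeR. At an unadjusted p under 0.05 edgeR gave 1421 genes, none of them among the 10, and DESeq2 called 18 genes. Log2 fold changes of the 10 ran from -0.83 ± 0.76 (Slc38a5) to 0.30 ± 0.25 (Slc38a2), and the lowest adjusted p was 0.653. Slc7a5 was at 73.2, 73.0, 21 and 19.9 TPM in the 4 stabilized wells (-0.77 ± 0.71, adjusted p = 0.688), Slc7a1 at 15.7, 23.3, 24.8 and 22 TPM (0.12 ± 0.74) and Slc6a6 at 14.5, 17.3, 14.1 and 11.0 TPM (0.08 ± 0.39). All of these stabilized wells fell within the range of the WT wells, which spans different experiments. For Slc7a5, WT wells were at 272 and 328 TPM in the highest experiment and at 15.4 to 20.0 TPM in the others. Stabilized wells at 73.2, 73.0 and 21 TPM lay between these levels. For Slc7a1 in TPM, all stabilized wells lay between the method A WT wells (5.29 and 7.41 TPM) and the other WT wells (32.4 to 47.7 TPM). On TMM-scaled counts, which the test uses, the order was different. Stabilized wells were then at 78.9, 97.1, 226 and 206 CPM. They lay above the method A WT wells (28.9 and 32.1 CPM) and WT culture replicates 3 and 4 (62.1 and 56.5 CPM). They lay below WT culture replicates 5 and 6 (375 and 272 CPM). Lying within the range therefore does not show that stabilized and WT wells were alike. Both system N carriers were low, Slc38a3 at 1.82, 1.41, 0.744 and 0.709 TPM and Slc38a5 at 0.284, 0.187, 0.918 and 0.741 TPM.

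Within isolation methods the picture differed. Among method A cultures, 2 transporters were called higher with stabilization, Slc7a5 (log2 fold change 1.22 ± 0.08, adjusted p = 0.000445) and Slc7a1 (1.48 ± 0.13, adjusted p = 0.000636), against 5.38% of genes called higher and 0.918% lower. Among 36-cycle method B cultures, Slc1a1 alone was called (1.24 ± 0.11, adjusted p = 0.000797), against 1.08% of genes higher and 0.288% lower. The effect of stabilization differed between the methods for 7 of the 10 genes by the interaction term (adjusted p under 0.05), which 49.9% of 13357 genes also passed. Each of these contrasts rests on 2 wells a side from 1 experiment each, and the method A WT wells were C57BL/6J while the stabilized wells carried Ctnnb1flex3, Pdgfb-CreER and Tie2-GFP, so that experiment, strain and stabilization cannot be told apart. With isolation method and read length as a term, no transporter was called, against 0.594% of genes higher and 0.0694% lower. With the replicate number as a block, Slc7a1 alone was called (1.62, adjusted p = 0.0389), against 1.1% of genes higher and 0.34% lower. By number, the method B stabilized wells are matched to the WT wells read for 150 cycles at another facility. Stabilization cannot be told apart from read length and facility in that fit. In the 36-cycle method B wells, Slc7a1 was lower with stabilization (24.8 and 22 against 47.7 and 32.6 TPM), whereas in method A it was higher.

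Against the same acutely isolated libraries, stabilized cultures had 2 transporters called higher and 7 lower, where 15.1% of 13890 genes were higher and 11% lower. Slc38a3 was 313-fold lower (log2 fold change -8.29 ± 0.37, adjusted p = 4.88e-05), Slc38a5 186-fold (-7.54 ± 0.97, adjusted p = 0.00109) and Slc6a6 61.5-fold (-5.94 ± 0.35, adjusted p = 9.35e-05). Slc7a5 (-3.83 ± 0.36), Slc7a1 (-3.34 ± 0.47) and Slc3a2 (-2.83 ± 0.25) were also lower, and Slc38a2 (2.37 ± 0.32) and Slc1a4 (3.19 ± 0.53) higher. Without acutely isolated replicate 1 the differences were -7.63 for Slc38a3, -6.90 for Slc38a5 and 3.95 for Slc1a4, and without acutely isolated replicate 2 that of Slc38a2 was 2.98. Slc1a1 was called lower (-1.21 ± 0.15, adjusted p = 0.00106), but with protein-coding transcripts alone its difference was -0.17 (adjusted p = 0.409). With protein-coding transcripts of at least 1000 bases, 2 transporters were higher and 6 lower, against 13.9% and 9.06% of genes.

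The kind of transcript that carried the TPM of Slc3a2, Slc1a1 and Slc7a5 differed between acutely isolated and cultured ECs. For Slc3a2, transcripts under 1000 bases held 84.5 and 91.1% of TPM in the acutely isolated libraries and at least 90.03% in GFP-negative cells, but at most 1.75% in any culture. In counts, those transcripts held 43.8 and 54.8% of Slc3a2 in acutely isolated ECs. For Slc1a1, non-coding transcripts, mostly with a retained intron, held 80.1 and 82.1% of TPM in acutely isolated ECs against at most 17.3% in cultures and 3.45 and 23.3% in GFP-negative cells, so that its coding transcript was at 11.4 and 14.4 TPM in acutely isolated ECs and between 9.64 and 109 TPM in WT cultures. For Slc7a5, a retained-intron transcript of 618 bases held 19.7 and 46.0% of TPM but 1.63 and 5.63% of counts in acutely isolated ECs, and non-coding transcripts held 0% of TPM in GFP-negative cells and at most 2.6% in cultures. Over all genes at 5 TPM or more, the median share of counts on non-coding transcripts was 4.38 and 6.43% in acutely isolated ECs and 0.292 to 1.53% in cultures. Single-end 75-cycle reads were used for the sorted cells alone, so that read type and culture cannot be told apart. The Slc7a5 locus also lies within Gm20388, an overlapping annotated gene that was at 6.6 TPM in 1 GFP-negative and 1.5 TPM in 1 acutely isolated library and at 0 elsewhere.

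**Figure D3:**
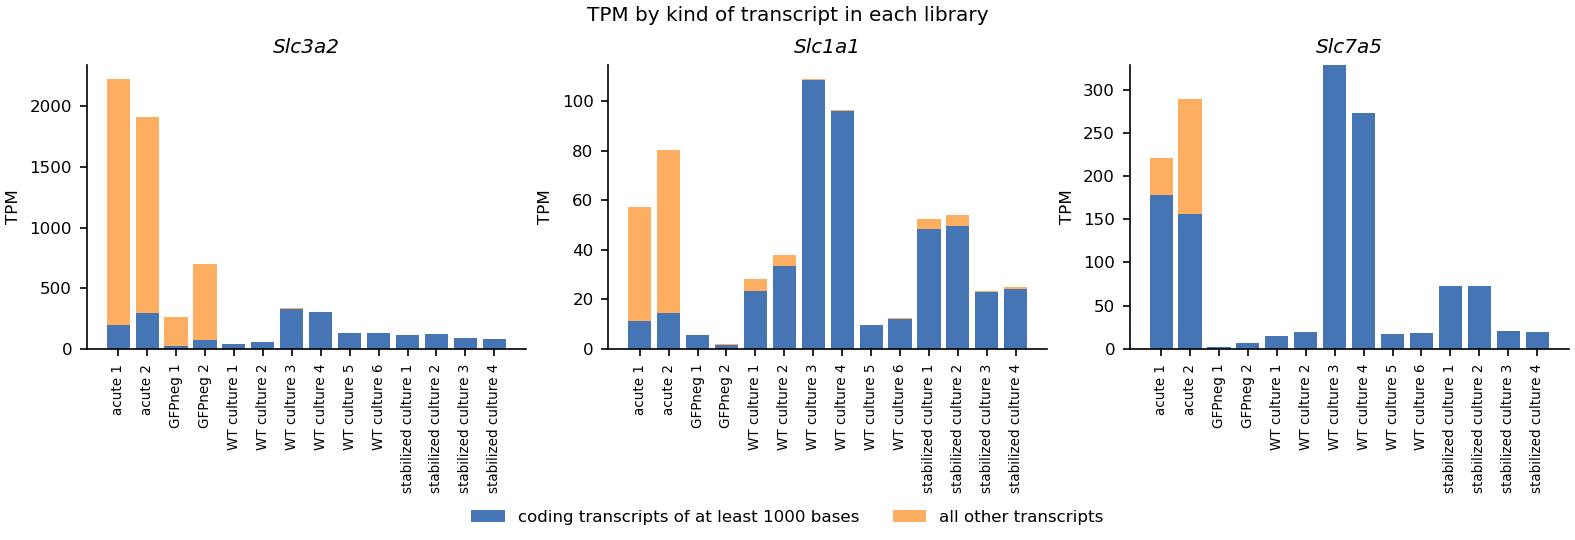
TPM (y axis, from 0) of Slc3a2, Slc1a1 and Slc7a5 in each of the 14 libraries, split into coding transcripts of at least 1000 bases and all others. Transcripts other than long coding ones make up most of Slc3a2 in the 4 freshly sorted libraries and most of Slc1a1 in the 2 acutely isolated EC libraries, and little of any culture.

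Of 45 listed genes of the Slc1, Slc3, Slc6, Slc7, Slc16, Slc36, Slc38 and Slc43 families, 31 passed the filter on low counts in WT cultures against acutely isolated ECs, of which 0 were called higher and 3 lower, against 13.5% and 10.2% of all genes, with a median log2 fold change of -0.41 against 0.10 for all genes. The lower share was close to that of all genes. The 3 were the cationic carrier Slc7a3 (20.6 and 24.9 TPM against at most 2.12 TPM, -4.70, adjusted p = 0.000523), Slc38a11 (9.54 and 14.2 against at most 0.204 TPM, -8.06, adjusted p = 0.000483) and Slc6a20a, a proline carrier (8.43 and 10.8 against at most 0.0342 TPM, -11.59, adjusted p = 2.44e-05). Slc38a11 (37.3 and 61.8 TPM) and Slc6a20a (14.2 and 20.2 TPM) were at higher levels in GFP-negative cells than in acutely isolated ECs, and Slc6a20a was called lower in GFP-positive cells (-1.5, adjusted p = 0.0338). Between GFP-positive and GFP-negative cells, 1 of 36 tested genes was higher (Slc7a3, 7.65) and 11 were lower, against 8.29% and 7.56% of all genes. Among the lower ones were the glial glutamate carriers Slc1a3 (-7.52) and Slc1a2 (-7.06), the GABA carrier Slc6a11 (-8.67) and the neuronal system A carrier Slc38a1 (-8.00). The median was -2.66 over the listed genes and -0.06 over all genes.

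Another list held genes known to respond to amino acid supply. Of its 33 measured genes, 16 were called higher and 1 lower in WT cultures, against 13.5% and 10.2% of all genes, with a median log2 fold change of 1.69 against 0.10 for all genes. Among the called genes, the largest differences were those of the serine synthesis enzyme Phgdh (0 and 0.305 TPM in acutely isolated ECs, 14.6 to 218 TPM in WT cultures, log2 fold change 7.63 ± 1.75, adjusted p = 0.0077), the mitochondrial folate enzyme Mthfd2 (6.85 ± 0.72, adjusted p = 0.000227), the glutathione-degrading Chac1 (5.91 ± 0.61), the transcription factor Cebpb (5.89 ± 0.58) and the translation inhibitor Eif4ebp1 (4.72 ± 0.54). Asparagine synthetase, Asns, was at 3.25 and 3.51 TPM in acutely isolated ECs and 34.3, 67.3 and 197 TPM in WT cultures (3.96 ± 0.64, adjusted p = 0.00151), with no overlap. The serine enzyme Psat1 (2.89) and the tRNA synthetases Gars (2.46) and Sars (1.62) were also higher. Atf4 itself did not pass (29.0 and 71.5 against 168, 187 and 286 TPM, 1.84 ± 0.71, adjusted p = 0.061), nor did Ddit3 (0.54, adjusted p = 0.595), Atf5 (1.53, adjusted p = 0.403), Cebpg (-0.23, adjusted p = 0.578), Nars (1.15, adjusted p = 0.058) and Eprs (-0.45, adjusted p = 0.514). Ddit4, an inhibitor of mTORC1 that other stresses also raise, was the gene called lower (41.1 and 45.9 against 3.99, 7.99 and 12.9 TPM, -3.13 ± 0.34).

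Between stabilized and WT cultures, 0 genes of either list were called, with medians of -0.08 (other transporters) and -0.19 (amino acid response) against -0.07 for all genes. In stabilized cultures against acutely isolated ECs, 18 response genes were higher, Atf4 (1.42) among them, and 1 lower, against 15.1% and 11% of all genes. Between GFP-positive and GFP-negative cells, 1 response gene was higher (Cebpg, 2.05) and 3 lower (Phgdh, -7.28, Psat1, -3.41, and Atf5, -1.73), against 8.29% and 7.56% of all genes.

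**Figure D4:**
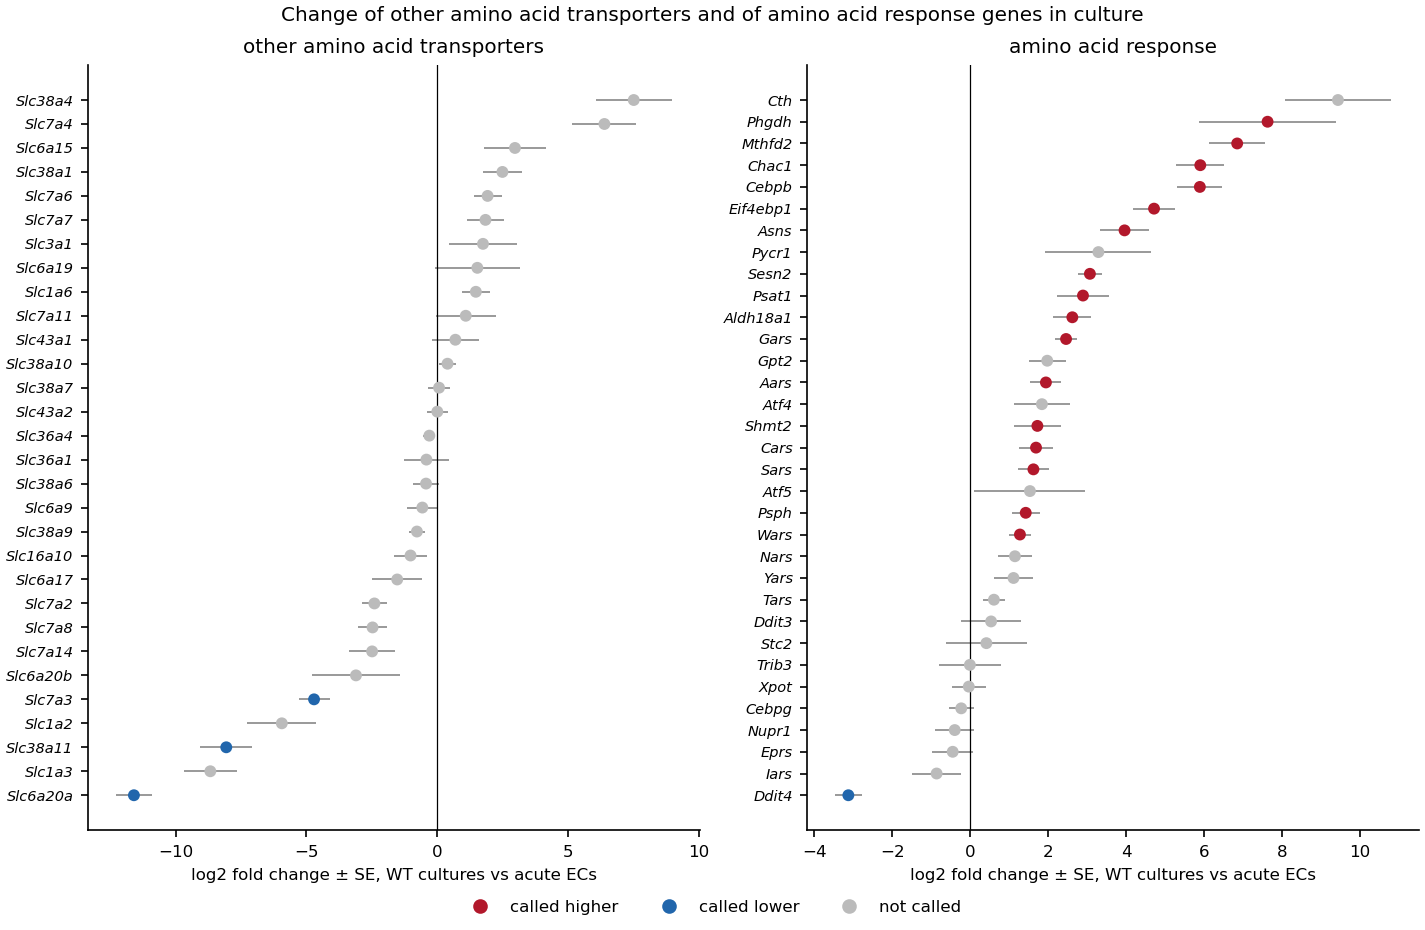
Log2 fold change of WT cultures against acutely isolated ECs (x axis, edgeR, error bars are SE) for tested genes of the list of other amino acid transporters (left) and of the amino acid response list (right), coloured by call. Grey genes did not meet the adjusted p, the fold or the TPM minimum. On the left 3 genes are called lower and 0 higher, and on the right 16 are called higher and 1, Ddit4, lower.

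Accessible chromatin was compared in ATAC-seq peaks that the authors called in each of 10 libraries (2 of acutely isolated ECs, 6 of WT and 2 of stabilized cultures), kept here at a fold enrichment and a -log10 q of at least 2. Within 1000 bases of an annotated start, 9 of the 10 transporters had a peak in 9 libraries and 7 in WT culture replicate 2, which had 33032 peaks against 50272 or more in the other cultures. Over all genes, 53.8 to 65.3% had such a peak. Slc38a5 had none in any library, also not in the acutely isolated ECs, where its transcripts were at 67.8 TPM or more. Start-site peaks remained in culture for genes whose transcripts were far lower there, with a fold enrichment at the Slc6a6 start of 9.84 and 11.7 in acutely isolated ECs and 3.77 to 8.87 in WT cultures, and at the Slc7a5 start of 8.01 and 8.92 against 5.79 to 12.7. The Slc38a3 start had 7.82 and 8.51 in acutely isolated ECs and 4.00 to 7.30 in 5 of 6 WT cultures.

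Of all merged peak regions, starts included, 11 of 124 within 20 kb of the 10 genes were open in both acutely isolated libraries and in none of the 8 cultured ones (8.87%, against 2.38% of 96261 regions near all protein-coding genes). These regions lay near 7 of the 10 transporters, whereas 10.8% of all genes and 30.3% of the genes called lower in WT cultures had one. Slc6a6 had 3, with summits in its introns 37.3, 54.1 and 69.1 kb downstream of its start, Slc7a1 and Slc38a5 had 2 each, and Slc7a5, Slc38a3, Slc1a1 and Slc1a5 had 1 each. Regions open in all 8 cultures and in neither acutely isolated library lay near 3 transporters (29.7% of all genes): Slc7a5 (chr8:121901804-121902352, intronic), Slc7a1 (chr5:148359356-148360048, intronic) and Slc1a4 (chr11:20347453-20348066, between genes, 14.9 kb upstream of the start). Such regions made up 2.42% of the 124 near the transporters, against 7.69% of those near all protein-coding genes. Further regions without a peak in acutely isolated ECs, near Slc1a1, Slc6a6, Slc38a2, Slc7a1 and Slc7a5, were open in every culture except WT culture replicate 2. That library had the fewest peaks of the cultures (33032). The share of all genes with a region of this further kind was not counted. Numbers of peaks differed between libraries (31601 and 37211 in acutely isolated ECs, 33032 to 98603 in cultures), and the part of peak number in these counts was not tested.

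Slc7a1 showed the clearest change of a start site. The gene (chr5:148327410-148399904, minus strand, mm10) has 1 main annotated start at its 5′ end, where a peak was present in all 10 libraries (fold enrichment 11.4 and 15.2 in acutely isolated ECs, 8.56 to 10.8 in WT and 9 and 10.3 in stabilized cultures). A further start, that of the transcript Slc7a1-202, lies inside the gene, and the region over it (chr5:148392677-148393379, summit 6.9 kb from the gene's 5′ end) was at 12.1 and 14.7 in acutely isolated ECs and had no peak in any of the 8 cultures. Salmon assigned 19.2 and 36.3 TPM to Slc7a1-202 in acutely isolated ECs, 2.51 to 29.8 TPM in WT cultures and 0.786 to 4.22 TPM in stabilized cultures, an estimate that rests on shared exons. The 250 bases before each start are shown to compare the start with peaks in all libraries and the start with peaks in acutely isolated ECs alone (RefSeq annotation of GRCm38, gene strand, 5′ to 3′). Capitals mark matches, on either strand, to any of 5 motifs searched: CTTTGAT (TCF/LEF), TGATGNAA (the amino acid response element CARE), TGANTCA (AP-1), GGGCGG (GC box) and AGGAAG (ETS).
Slc7a1 main start, chr5:148399905-148400154: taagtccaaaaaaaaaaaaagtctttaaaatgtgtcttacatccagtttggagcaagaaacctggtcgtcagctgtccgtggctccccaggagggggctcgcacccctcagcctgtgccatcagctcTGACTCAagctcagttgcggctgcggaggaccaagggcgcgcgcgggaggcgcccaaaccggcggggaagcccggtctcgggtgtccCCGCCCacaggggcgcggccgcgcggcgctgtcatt
Slc7a1-202 start, chr5:148392816-148393065: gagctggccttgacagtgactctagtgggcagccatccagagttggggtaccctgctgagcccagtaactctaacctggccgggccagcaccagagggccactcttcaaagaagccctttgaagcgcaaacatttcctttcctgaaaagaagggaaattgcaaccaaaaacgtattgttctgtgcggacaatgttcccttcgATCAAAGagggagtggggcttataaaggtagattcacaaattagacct
The main start has 62.4% G and C, 21 CpG, an AP-1 and a GC box match. The start of Slc7a1-202 has 50.0% G and C, 5 CpG and 1 TCF/LEF match, written as its reverse complement ATCAAAG, a match that 3.21% of 32851 promoters of this length hold. Of those promoters 6.75% hold an AP-1 and 32.7% a GC box match. A match is a description of the letters and says nothing about binding.

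Slc38a5 (chrX:8271133-8280179, plus strand) had no peak at its start and 2 regions open in acutely isolated ECs alone, both between genes and upstream of it: chrX:8257412-8258422, 13.0 kb upstream (fold enrichment 7.1 and 8.3), and chrX:8260663-8261096, 10.3 kb upstream (5.8 and 5.1). The strongest such region of Slc6a6 (chr6:91684053-91759066, plus strand) was chr6:91721116-91721933 (14.3 and 13.6), and that of Slc7a5 (chr8:121881150-121907694, minus strand) was chr8:121912051-121912608, 4.6 kb upstream and in an intron of the overlapping Gm20388 (3.8 and 3.5). The 201 bases around the summit of the acutely isolated peak with the higher fold enrichment are given for these 4 of the 11 regions. They are examples of sequence open in acutely isolated ECs alone near a system N, a taurine and the LAT1 gene (mm10, gene strand, capitals as above).
Slc38a5, 13.0 kb upstream, chrX:8258064-8258264: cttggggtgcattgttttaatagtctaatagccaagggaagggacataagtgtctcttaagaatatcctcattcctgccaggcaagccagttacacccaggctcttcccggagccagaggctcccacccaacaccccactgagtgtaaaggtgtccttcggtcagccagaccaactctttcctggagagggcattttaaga
Slc38a5, 10.3 kb upstream, chrX:8260726-8260926: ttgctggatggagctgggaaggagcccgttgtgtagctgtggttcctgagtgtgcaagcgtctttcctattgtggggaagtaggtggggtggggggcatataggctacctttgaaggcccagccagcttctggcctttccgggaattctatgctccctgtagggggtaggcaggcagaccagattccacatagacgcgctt
Slc6a6, 37.3 kb downstream of the start, chr6:91721271-91721471: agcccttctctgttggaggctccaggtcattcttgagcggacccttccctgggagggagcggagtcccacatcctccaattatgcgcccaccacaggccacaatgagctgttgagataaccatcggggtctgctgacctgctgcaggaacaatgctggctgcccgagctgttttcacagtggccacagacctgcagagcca
Slc7a5, 4.6 kb upstream, chr8:121912208-121912408: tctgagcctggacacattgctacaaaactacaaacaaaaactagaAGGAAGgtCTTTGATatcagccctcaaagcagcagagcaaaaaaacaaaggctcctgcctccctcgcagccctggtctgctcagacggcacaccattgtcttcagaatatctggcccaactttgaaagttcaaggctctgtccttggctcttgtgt
The Slc7a5 window holds 1 TCF/LEF and 1 ETS match, and the other 3 windows hold none of the 5 motifs. Among 37211 peak windows of this length, 4.34% hold a TCF/LEF, 1.81% a CARE, 7.01% an AP-1, 29.9% a GC box and 36.7% an ETS match.

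The remaining regions open in acutely isolated ECs alone had fold enrichments of 3.4 to 10.2. They were chr9:107664926-107665539, over a downstream start of Slc38a3 (6.9 and 5.6), chr19:28886958-28887735 in a Slc1a1 intron (6.9 and 6.5), chr7:16808701-16809175 between genes near Slc1a5 (10.2 and 8.2), chr5:148388267-148388617 in a Slc7a1 intron (4.2 and 3.9), and chr6:91737836-91738635 (8.8 and 9.6) and chr6:91752770-91753382 (5.9 and 3.4) in Slc6a6.

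**Figure D5:**
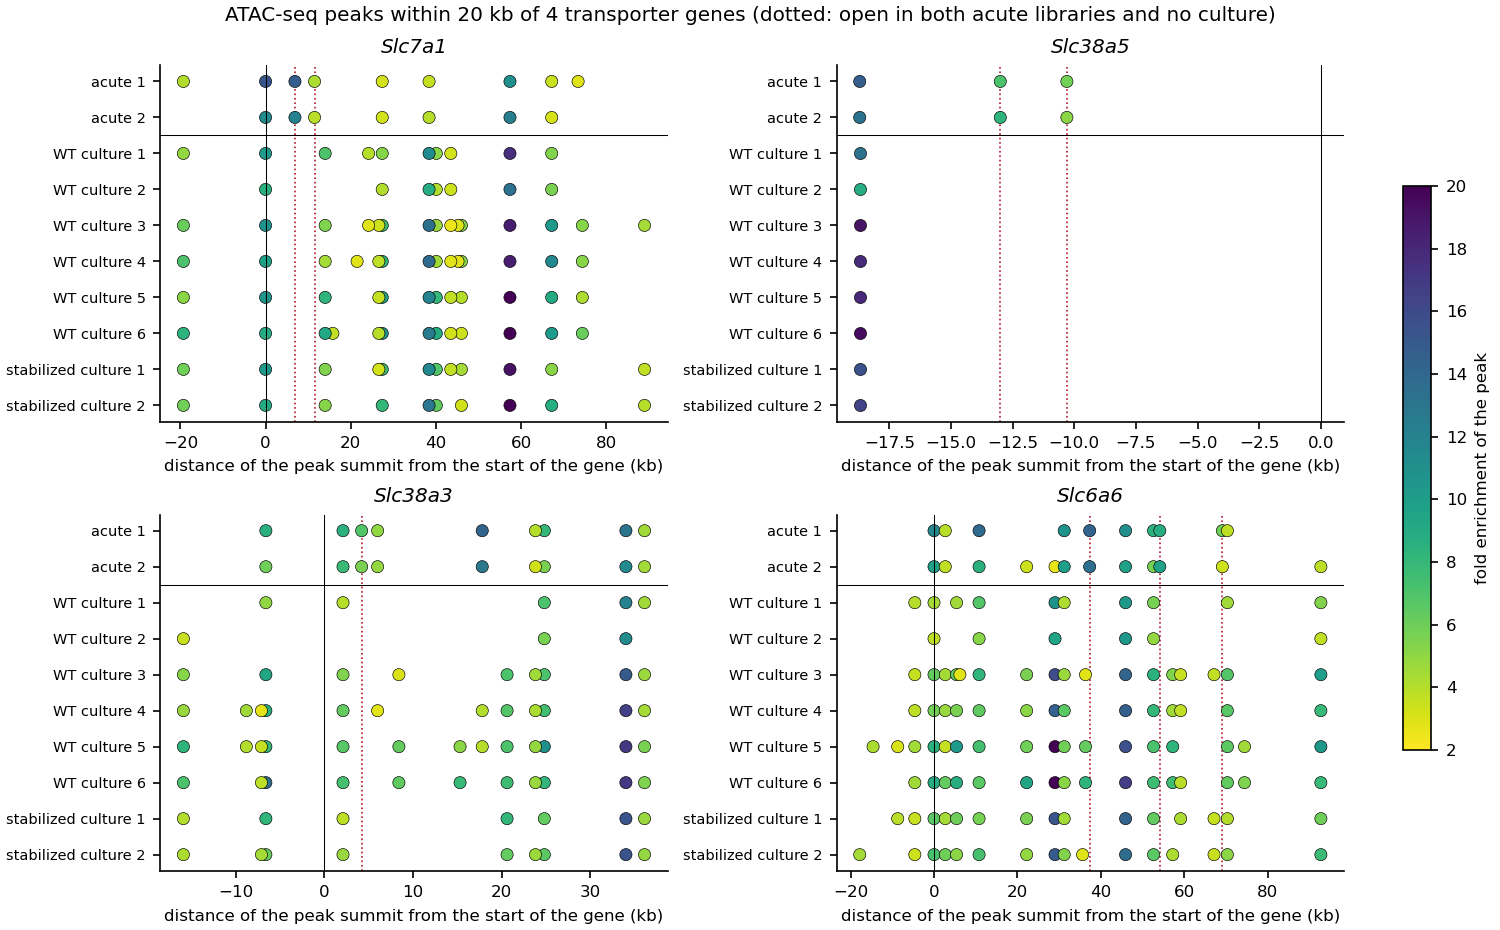
ATAC-seq peaks within 20 kb of Slc7a1, Slc38a5, Slc38a3 and Slc6a6, by distance of the summit from the 5′ end of the gene (x axis, kb, positive in the direction of transcription) and library (rows), coloured by fold enrichment. Dotted lines mark the regions with a peak in both acutely isolated libraries and in none of the 8 cultures: 2 for Slc7a1, 2 for Slc38a5, 1 for Slc38a3 and 3 for Slc6a6.

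Finally, the 3 genes with the most similar pattern over the 14 libraries were found for each transporter by Pearson's r of log2(TPM + 1) among 11601 genes, as a description, since the libraries share culture, read type and experiment. For Slc38a5 these were Slc7a3 (r = 0.978), Bche (0.971) and Ccl21a (0.962), and for Slc6a6 Bche (0.979), Slc39a10 (0.968) and Ccl21a (0.966). Slc7a1 was closest to the glucose carrier Slc2a1 (0.941), then Proser2 (0.929) and Parvb (0.926). Slc38a3 was closest to Isyna1 (0.984), an enzyme of inositol synthesis, Nedd4l (0.977) and Kifc3 (0.969), and Slc3a2 to Cdk11b (0.972), Gbf1 (0.971) and Nedd4l (0.965). The genes given for Slc7a5 are Ccdc85a (0.981) and Sephs1 (0.975), and Slc1a1 was closest to Arhgef15 (0.974), Igsf5 (0.969) and Tspan13 (0.967). The genes higher in culture had Washc5 (0.993), Adam9 (0.99) and Itgb3 (0.99) for Slc38a2, and Ndn (0.989), Dpysl3 (0.988) and Got1 (0.984) for Slc1a4. Slc1a5 was closest to Taf6l (0.963), Prps1 (0.961) and Prpsap1 (0.958).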

How the data were processed

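RNA-seq was measured in 14 libraries and ATAC-seq in 10. The authors trimmed adaptors where needed and ran Salmon 0.14.0 on GENCODE M21 transcripts (GRCm38, mm10) with bias models. The deposited estimated counts are not normalized, and the deposited TPM is divided by effective length, in bases, by the authors. Cerebrum and cerebellum data are combined in the sorted-cell files. For ATAC-seq the authors aligned with HISAT2 2.1.0, removed duplicates with Picard and called peaks per library with MACS2 2.1.2. The deposited peak files hold fold enrichment (a ratio), -log10 p and q, and a score.

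Counts and TPM of 140198 transcripts were summed per protein-coding symbol (21820 genes), and counts were rounded to whole numbers. Comparisons used edgeR 4.0.16 in R 4.3.3 (filterByExpr, TMM, quasi-likelihood test, Benjamini-Hochberg over all tested genes), with DESeq2 1.42.0 as an alternative. Each comparison took only its own groups, and the interaction used the 36-cycle cultures. Scripts were tested on simulated data. Overlapping peaks were merged into regions.

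Groups came from titles and genotypes, and isolation method and read cycles from the study's methods. The members, the lists and the tests were chosen with earlier results of these data known. All members were named. From each list, the 5 called genes with the largest change per direction in the first 2 comparisons were named, with any gene at a mean of 50 TPM or more in acutely isolated ECs or WT cultures. For each member, the 3 genes with the highest correlation were found among genes at 5 TPM or more in any library. Some genes that these rules select are not reported here. The cerebrum libraries were not analysed here. Promoter entries in RefSeq tables matched 6 of the 10 members.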

Additional observations from a re-analysis of the deposited data

Results flagged for a closer look

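The effect of stabilization on 7 transporters differed between isolation methods by the interaction term of edgeR on the 36-cycle cultures, given as the log2 fold change in method B minus that in method A. The difference was -0.93 for Slc7a5, -1.10 for Slc3a2, -2.07 for Slc7a1, -1.02 for Slc38a2 and -0.46 for Slc6a6, and it was 2.08 for Slc38a5 and 1.30 for Slc1a1. In Slc7a1 the stabilized wells were above the WT wells in method A (15.7 and 23.3 against 5.29 and 7.41 TPM) and below them in method B (24.8 and 22 against 47.7 and 32.6 TPM). For Slc1a1 the fitted log2 fold change was -0.07 in method A and 1.24 in method B. Each cell of this design is 1 experiment of 2 wells, 49.9% of all tested genes passed the same test, and differences between experiments cannot be told apart from the method. In 20 sets of values (10 genes in WT and in stabilized cultures), 0 had a well set apart from the others by Dixon's test. That test looks for a single outlying well, and each experiment gave 2 similar wells, which can mask each other. It therefore cannot show whether an experiment stood apart.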

How the results depend on the processing

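Leaving out 1 replicate at a time moved the number of transporters called between 5 and 8 in WT cultures against acutely isolated ECs (5 without acutely isolated replicate 1), 7 and 8 in GFP-positive against GFP-negative cells, 0 and 0 in stabilized against WT cultures, and 9 and 9 in stabilized cultures against acutely isolated ECs. Over all genes these counts were 2420 to 3228, 1784 to 2784, 0 to 0 and 3407 to 4100. Without the TPM minimum, calls over all genes numbered 5987 in WT cultures against acutely isolated ECs, 4475 in the GFP comparison and 6617 in stabilized cultures against acutely isolated ECs. Summing wells of one experiment gave 2112 in the first, with 2 transporters called higher and 6 lower. An offset for transcript length gave 1564 in the GFP comparison, and long coding transcripts, an alternative chosen after seeing the data, gave 1594. Stabilized against WT cultures gave 18 genes with DESeq2, 187 with the replicate block, 809 in method A cultures, 176 in 36-cycle method B cultures and 86 with the culture experiment as a term. The transporters called there numbered 1 with the replicate block (Slc7a1), 2 in method A and 1 in method B cultures, where Slc7a5 (1.22, method A) and Slc1a1 (1.24, method B) reversed direction. The cause was not tested. Same-numbered samples did not deviate together in every pair (correlations from -0.04 to 0.54), and the main fits did not pair samples by number. With 2 libraries a group, the GFP comparison can give only 1 correlation up to sign. It cannot show whether GFP-positive and GFP-negative libraries of the same number are paired. With the replicate number as a block, that comparison called 7 transporters higher and 0 lower. Of single-gene values, 211 of 220 kept their call and direction in WT cultures against acutely isolated ECs, 136 of 140 in the GFP comparison, 185 of 190 in stabilized cultures against acutely isolated ECs, and 207 of 250 in stabilized against WT cultures. Scaling by library size alone moved the all-gene median from 0.10 to 0.30 and from -0.06 to -0.44 in the first 2 comparisons, with no transporter call altered, while the GFP comparison then called 930 genes higher and 1419 lower. The sorted groups hold 2 libraries each, which limits every comparison with them.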
